A study of Schmidtea mediterranea with 100 samples.

Results

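The 2 Musashi genes named in the data, msi-1 (transcript SmedASXL_011563) and msi-2 (transcript SmedASXL_008525), were taken by their row names, and each had 1 row in both count tables. They are 2 of 67386 transcripts in the bulk table, where 163 transcripts carry a gene name, and 2 of 38237 in the single-cell table. Musashi proteins bind RNA through RNA recognition motifs and mostly repress or otherwise adjust the translation of the messages they bind. In Drosophila the founding gene acts in the asymmetric division of sensory organ precursors, and in mammals MSI1 and MSI2 are known from neural and blood stem cells. Musashi-like genes of the related planarian Dugesia japonica have been described in the nervous system.

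The cells came from whole animals of the asexual, clonal CIW4 strain of the planarian Schmidtea mediterranea and were stained for DNA with Hoechst and for RNA with pyronin Y. Each of 4 FACS gates, RNA-low, S/G2/M, G1 and PM, gave 1 bulk TruSeq library from wild-type animals, and Smart-seq2 libraries were made from 96 individual RNA-low cells. What PM stands for is not given, and the gates are set by DNA and RNA content rather than by a stem cell marker, so each can hold several cell types. The study's title concerns slow-cycling neoblasts, the dividing stem cells of planarians, and their response to TOR signalling.

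The bulk libraries held 47338591 to 74968402 counted reads. Transcripts were most often read about 5 times in RNA-low, 21 in S/G2/M, 10 in G1 and 25 in PM, so these numbers were used as the reads per starting fragment. Intervals below are exact 95% intervals on these estimated fragments unless stated otherwise, and they cover counting error only. The gates carried the markers their names imply in part: the replication and mitosis genes PCNA, mcm2 and CyclinB2 summed to 896 CPM (counts per 1000000 of the scaled library) in S/G2/M, against 89.3 in RNA-low, 242 in G1 and 79.6 in PM. With 1 library per gate no bulk difference has a replicate check and no p-value is given. Fewer cells of a type and less RNA per cell cannot be told apart in these libraries, and CPM is a share of a scaled library, not an amount per cell.

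Both Musashi genes were highest in RNA-low and lowest in S/G2/M. The msi-1 transcript had 2309 reads in RNA-low, 117 in S/G2/M, 1273 in G1 and 967 in PM. After scaling by the trimmed mean of M values (TMM) its level was 38.9 CPM in RNA-low (interval 35.4 to 42.6), 1.77 CPM in S/G2/M (0.619 to 3.96), 21.4 CPM in G1 (17.9 to 25.5) and 20.5 CPM in PM (14.6 to 28.1). The S/G2/M level stood apart from the other 3 gates, G1 and PM were not separated, and RNA-low was above both. The 117 reads of msi-1 in S/G2/M correspond to an estimated 5.57 fragments, so its level there is known only to within several fold.

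The msi-2 transcript had 2603 reads in RNA-low, 655 in S/G2/M, 973 in G1 and 864 in PM. Its level was 43.8 CPM in RNA-low (interval 40.1 to 47.7), 9.91 CPM in S/G2/M (6.74 to 14.1), 16.4 CPM in G1 (13.3 to 20.0) and 18.3 CPM in PM (12.7 to 25.5). RNA-low lay above the other 3 gates with no overlap of intervals. The interval of G1 lay within that of PM, and the top of the S/G2/M interval reached into both.

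**Figure D1:**
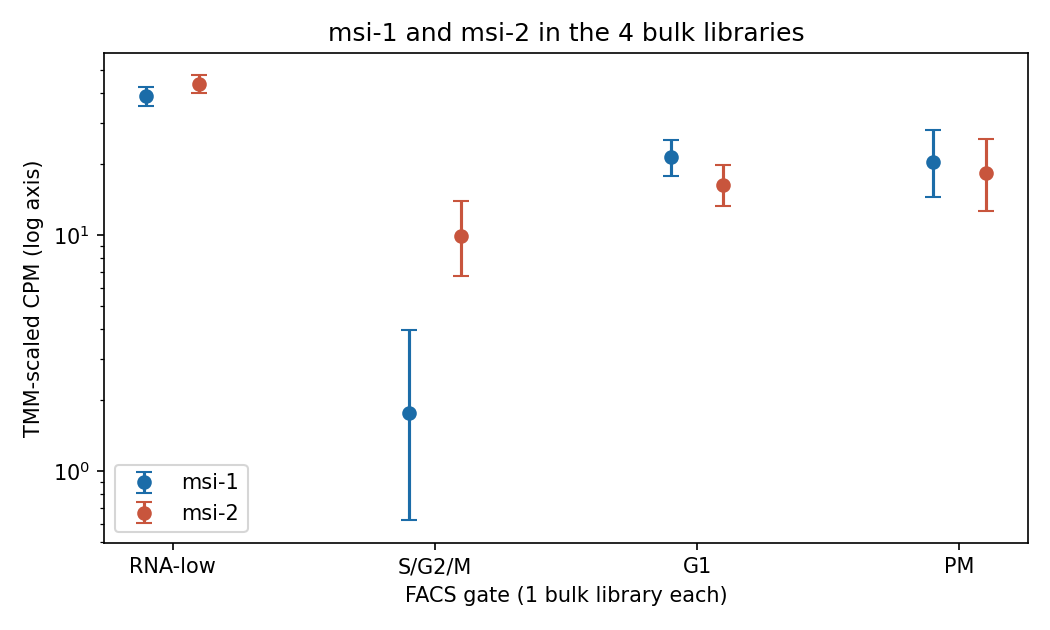
Levels of msi-1 and msi-2 in the 4 bulk libraries, as TMM-scaled CPM on a log axis, with 1 point per library and exact 95% intervals on estimated fragments as bars. RNA-low is highest for both genes, and msi-1 in S/G2/M stands far below all other points at 1.77 CPM.

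RNA-low and S/G2/M, the gate of replicating and dividing cells, differed most. The level of msi-1 was 38.9 CPM in RNA-low and 1.77 CPM in S/G2/M, a ratio of 21.9-fold (interval 9.73 to 63.0). After 0.5 CPM was added to each level, as for all log2 ratios used for calls, the log2 ratio was 4.12. For msi-2 the levels of 43.8 CPM in RNA-low and 9.91 CPM in S/G2/M gave a ratio of 4.42-fold (interval 3.08 to 6.56) and a log2 ratio of 2.09. A transcript was called when its ratio was at least 2-fold and its interval on reads excluded equality, among those reaching 5 CPM in either of the gates compared. Both Musashi genes were called higher in RNA-low, where 22.5% of the 12040 transcripts tested were called higher and 40.6% were called in either direction. Only 140 transcripts (1.16%) had a larger log2 ratio than msi-1, while 1092 (9.07%) had a larger one than msi-2.

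Against G1, RNA-low held more of msi-2 and, short of the call, more of msi-1. The level of msi-2 was 43.8 CPM in RNA-low and 16.4 CPM in G1, with a log2 ratio of 1.39 and a fold of 2.68 (interval 2.15 to 3.36). The level of msi-1 was 38.9 CPM in RNA-low and 21.4 CPM in G1, with a log2 ratio of 0.84 and a fold of 1.81 (interval 1.49 to 2.23), so that its interval excluded equality but not 2-fold. One of the 2 genes was thus called higher, in a comparison where 7.12% of 11890 transcripts were called higher and 16.9% in either direction. A larger log2 ratio than that of msi-2 was found for 415 transcripts (3.49%).

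Against PM, too, msi-2 was called higher in RNA-low and msi-1 was not. The level of msi-2 was 43.8 CPM in RNA-low and 18.3 CPM in PM, with a log2 ratio of 1.23 and a fold of 2.39 (interval 1.69 to 3.48). This call is lost when libraries are scaled by totals without ribosomal RNA, which took 16.9% of reads in RNA-low and 35.1% in PM, since the log2 ratio is then 0.94. The level of msi-1 was 38.9 CPM in RNA-low and 20.5 CPM in PM, with a log2 ratio of 0.91 and a fold of 1.89 (interval 1.36 to 2.70), and it was not called. In this comparison 14.6% of 13069 transcripts were called higher and 33.8% in either direction.

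The lower Musashi levels in S/G2/M were also seen against G1 and PM, for msi-1 far more than for msi-2. For msi-1 the levels were 1.77 CPM in S/G2/M and 21.4 CPM in G1, with a log2 ratio of -3.27 and an interval of the CPM ratio from -5.14 to -2.40. Against the 20.5 CPM of PM the log2 ratio was -3.21, with an interval of the CPM ratio from -5.13 to -2.25. It was called lower in both, where 18.2% of 11895 transcripts were called lower in S/G2/M against G1 (30.8% in either direction) and 25.8% of 13002 against PM (48.3% in either direction). A lower log2 ratio than that of msi-1 was found for 190 transcripts (1.60%) against G1 and 719 (5.53%) against PM.

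For msi-2 the same comparisons stayed below 2-fold with TMM scaling. Its 9.91 CPM in S/G2/M stood against 16.4 CPM in G1, a log2 ratio of -0.70 with an interval of the CPM ratio from -1.35 to -0.13. Against the 18.3 CPM of PM the log2 ratio was -0.85, with an interval of the CPM ratio from -1.63 to -0.15. Both intervals excluded equality, but neither ratio was called. With library totals both were at or past 2-fold, at -1.002 against G1 and -1.02 against PM. With totals without ribosomal RNA they were -0.91 and -1.28, the second of which was called. DESeq2 size factors moved both the other way, to -0.54 and -0.72, and neither was called.

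G1 and PM were not separated by either gene. The log2 ratio of G1 over PM was 0.06 for msi-1 (21.4 CPM in G1 and 20.5 CPM in PM, interval of the CPM ratio -0.47 to 0.62) and -0.16 for msi-2 (16.4 CPM in G1 and 18.3 CPM in PM, interval -0.74 to 0.44). Neither was called, in a comparison where 22.7% of 12953 transcripts were called. As folds of G1 over PM, the intervals leave room for 0.72 to 1.54 for msi-1 and 0.60 to 1.36 for msi-2.

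**Figure D2:**
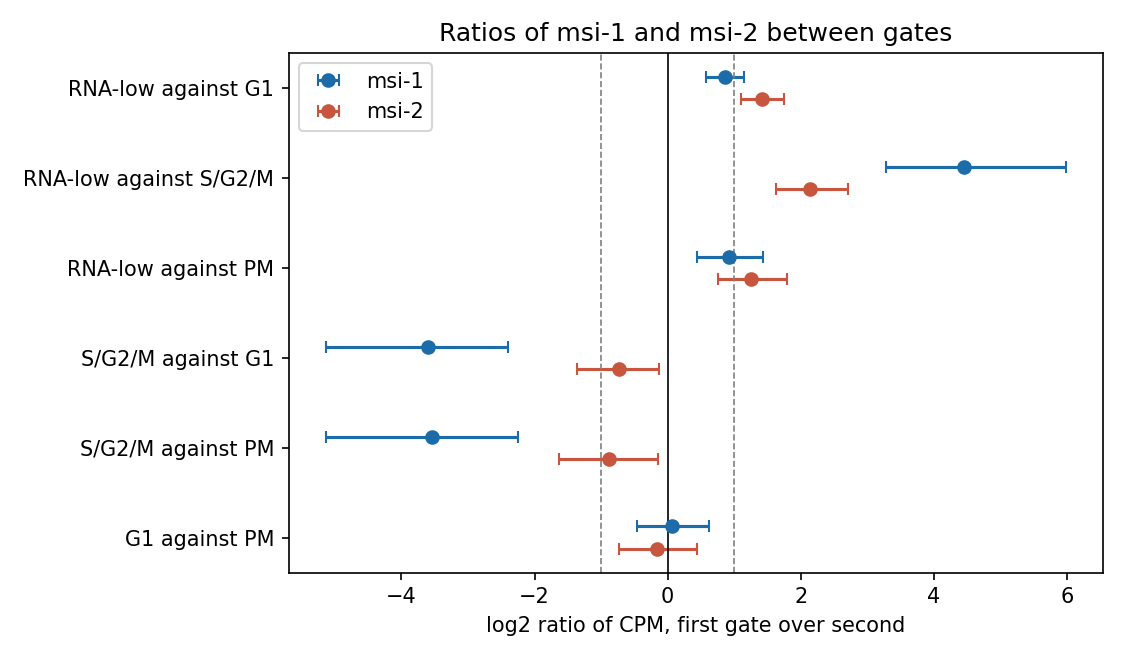
Log2 ratios of CPM, first-named gate over second, for msi-1 and msi-2 in the 6 comparisons of bulk libraries, with exact 95% intervals on estimated fragments. Dashed lines mark 2-fold. The 3 comparisons with RNA-low lie right of 0 for both genes, and msi-1 lies left of -2 in the other comparisons of S/G2/M.

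Set against each other within a library, the genes can be compared without any scaling. Their transcript lengths are not in the files, so the share itself is no measure of which gene is more abundant, but a change of share between libraries is not touched by length. Of the reads of both genes, msi-1 took 47.0% in RNA-low (interval 43.8 to 50.2), 15.2% in S/G2/M (5.50 to 30.8), 56.7% in G1 (49.9 to 63.3) and 52.8% in PM (40.8 to 64.6). The share in S/G2/M was below those of the other 3 gates with no overlap of intervals. In RNA-low against S/G2/M the difference between the genes was 2.31 on the log2 scale (msi-1 ratio minus msi-2 ratio, interval 0.89 to 3.76). In S/G2/M against G1 it was -2.87 (interval -4.36 to -1.39) and in S/G2/M against PM -2.65 (-4.22 to -1.01).

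Between RNA-low and G1 the difference had the other sign, at -0.56 (interval -1.001 to -0.13), so RNA-low exceeded G1 by more for msi-2 than for msi-1. For RNA-low against PM (-0.34, interval -1.06 to 0.39) and G1 against PM (0.23, interval -0.58 to 1.04) the intervals included 0. The msi-1 transcript was thus set apart from msi-2 by its level in S/G2/M, and to a smaller degree by its level in G1 relative to RNA-low.

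The pattern of both genes, highest in RNA-low and lowest in S/G2/M, was shared by 2406 of the 13992 transcripts with at least 5 CPM in any gate (17.2%) and by 35 of the 119 named ones among them (29.4%). Among 118 other named transcripts the gate profile closest to msi-1 was that of Med12, a subunit of the Mediator complex, at a distance of 0.90 between profiles of log2(CPM + 0.5) centred on their means over the 4 libraries. It was followed by a spondin transcript (1.14), ndk, known in planarians for confining brain tissue to the head (1.23), the chromatin remodeller gene chd4 (1.25) and Med1 (1.30). Closest to msi-2 were the gap junction gene innexin-1 (0.45), dvl-b, a Dishevelled gene of Wnt signalling (0.46), the Hedgehog receptor gene ptc (0.50), the transcription factor gene soxB (0.53) and the Wnt ligand gene wnt11-6 (0.54). The distance between msi-1 and msi-2 was 2.05, which placed msi-2 at rank 20 from msi-1 and msi-1 at rank 70 from msi-2. These distances rest on 4 libraries and describe likeness only.

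Other RNA-binding regulators included genes that were higher and genes that were lower in RNA-low than in S/G2/M. The list held 8 named genes: the PIWI genes piwi-1, piwi-2 and piwi-3, known in neoblasts, bruli, a Bruno-like gene needed to maintain neoblasts, tdrd112, a Tudor domain gene, mex3-1 and mex3-3, of the MEX3 family, and elav-2, of the ELAV family known in neurons. In RNA-low against S/G2/M, 3 of the 8 were called higher and 3 lower, with a median log2 ratio of -0.01. Over all transcripts tested 22.5% were called higher and 18.1% lower, and the median was -0.00. Those called higher, like the Musashi genes, were elav-2 (2.57), mex3-1 (1.86) and mex3-3 (1.82). Those called lower were tdrd112 (-1.53), bruli (-1.46) and piwi-1 (-1.19), of which piwi-1 lost the call with library totals (-0.96). The log2 ratio of msi-1, 4.12, was above all 8, and that of msi-2, 2.09, was below elav-2 alone. The place of msi-2 is not resolved. Its interval of the CPM ratio (1.62 to 2.71) overlapped those of elav-2 (2.12 to 3.18), mex3-1 (1.76 to 1.97) and mex3-3 (0.97 to 3.31). The interval of msi-1 (3.28 to 5.98) narrowly overlapped that of mex3-3.

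In RNA-low against G1 elav-2 was the one gene of the list called higher (1.19) and none was called lower, where 7.12% of all transcripts were called higher and 9.78% lower. The list's median was 0.34, against 0.10 over all transcripts. In RNA-low against PM, elav-2 (1.60), piwi-1 (1.55) and piwi-3 (1.20) were called higher and none lower, where 14.6% of all transcripts were called higher and 19.2% lower. The medians were 0.97 and 0.29. The counts depended on the scaling: 5 were called higher with library totals, and 2 with totals without ribosomal RNA, where piwi-3 was at 0.90.

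Among the comparisons without RNA-low, S/G2/M against G1 had 3 of the list called higher and 3 lower, with mex3-3 (-1.63), elav-2 (-1.38) and mex3-1 (-1.34) on the side of msi-1. Over all transcripts 12.6% were called higher and 18.2% lower, and the medians were 0.49 for the list and 0.07 for all. With library totals 1 was called higher and 3 lower, and with totals without ribosomal RNA 2 higher and 3 lower. In S/G2/M against PM 5 were called higher and mex3-3 alone lower, at 2.41 CPM in S/G2/M and 11.1 CPM in PM, where 22.5% of all transcripts were called higher and 25.8% lower. The medians were 1.11 for the list and 0.09 for all. Here elav-2 and mex3-1 were also called lower with library totals (4 higher and 3 lower) and with totals without ribosomal RNA (3 higher and 3 lower). In G1 against PM 2 were called higher and none lower, where 7.93% of all transcripts were called higher and 14.7% lower, and the medians were 0.62 and 0.21. With totals without ribosomal RNA 1 was called higher.

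**Figure D3:**
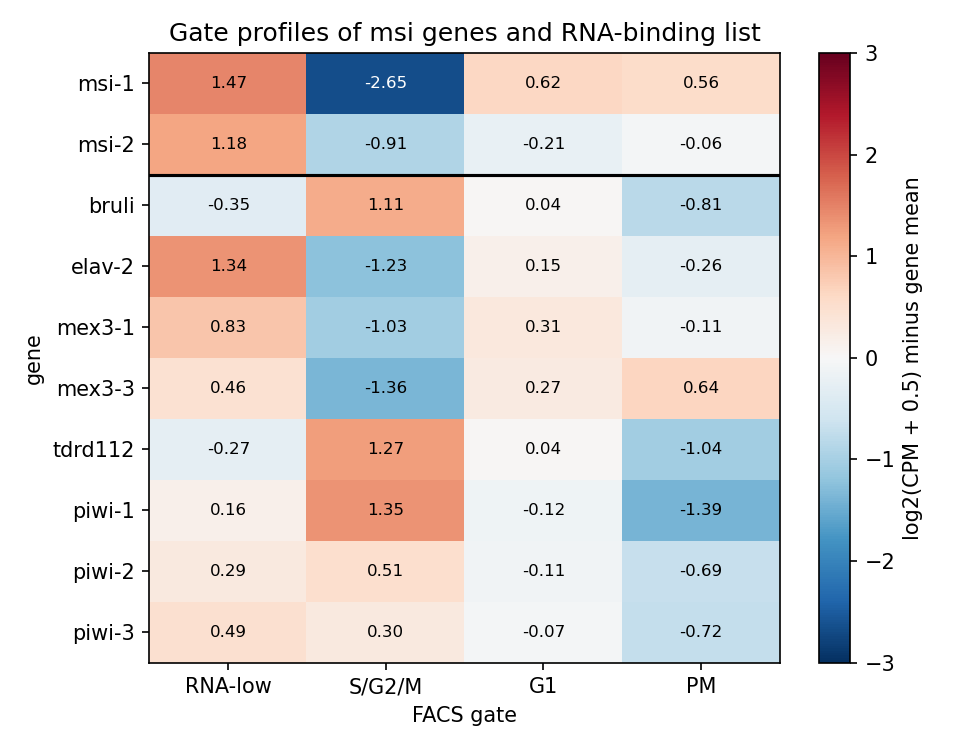
Gate profiles of msi-1, msi-2 and the 8 RNA-binding genes of the list, as log2(CPM + 0.5) minus the mean of each gene over the 4 bulk libraries. The msi genes, elav-2 and the mex3 genes are lowest in S/G2/M, whereas bruli, tdrd112, piwi-1 and piwi-2 are highest there.

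The 2 genes of the neuron list were, like the Musashi genes, highest in RNA-low and lowest in S/G2/M in the bulk libraries. This order is common, shared by 35 of the 119 named transcripts reaching 5 CPM (29.4%) and by 17.2% of all 13992. The 2 genes, COE, which encodes a transcription factor of neural cells, and elav-2, summed to 139 CPM in RNA-low, 17.6 in S/G2/M, 47.3 in G1 and 38.0 in PM. The pan-neoblast genes piwi-1, piwi-2, piwi-3 and bruli summed to 7439 CPM in RNA-low, 10246 in S/G2/M, 5725 in G1 and 3399 in PM, with their highest sum where the Musashi genes were lowest. The genes piwi-1 (1594 CPM in RNA-low and 3640 in S/G2/M), bruli (292 and 806) and piwi-2 (3292 and 3820) were highest in S/G2/M. The exception was piwi-3, with 2261 CPM in RNA-low and 1980 CPM in S/G2/M, which peaked in RNA-low. Markers of other cells followed other orders. The sum of the 18 early epidermal progeny transcripts was highest in G1, and the epidermal gene vim-1 in PM. The muscle gene titin was highest in PM and, like the Musashi genes, lowest in S/G2/M (0.51 CPM, against 4.61 in RNA-low). Of the intestine genes, porcnA was highest in S/G2/M and porcn-B in G1 (lowest in S/G2/M). The gamma neoblast gene NXK2.2_Dth-1 was highest in S/G2/M. The part of differing cell types in the bulk values was not tested.

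Single cells showed which RNA-low cells carried Musashi reads. Of the 96 cells, 79 with at least 500 detected transcripts were kept, with a median of 2075 transcripts and 152963 reads other than ribosomal RNA. Reads of msi-1 were found in 7 kept cells (8.86%, exact binomial interval 3.64 to 17.4), reads of msi-2 in 14 (17.7%, interval 10.0 to 27.9) and reads of either gene in 17 (21.5%, interval 13.1 to 32.2). None of the 17 cells left out had reads of either, which allows a share of up to 17.6% (3 cells of 17), with an exact upper limit of 19.5%. The animals and plates behind the cells are not named, so the cells count as 1 sample and the intervals cover counting error only.

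Cells with reads of msi-1 were few but often well covered. The 7 cells had 182 reads (cell 3), 155 (cell 19), 14 (cell 35), 23 (cell 63), 49 (cell 69), 194 (cell 86) and 4 (cell 90). In reads per 1000000 reads other than ribosomal RNA (RPM) these ran from 19.8 in cell 90 to 1147 in cell 19, with a median of 326. Smart-seq2 as used here counts reads without molecular identifiers, so reads within a cell are not separate molecules.

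The 14 cells with msi-2 had from 1 read (cell 19) to 977 (cell 86), with a median of 49.5. In RPM the msi-2 values ran from 7.40 to 2938, with a median of 239. A single cell, cell 86, held 59.2% of all msi-2 reads and 31.2% of all msi-1 reads of the kept cells. Pooled over the kept cells msi-2 stood at 114 RPM, and at 47.7 without cell 86, against 54.6 in the RNA-low bulk library on the same scale. For msi-1 the pooled level was 43.0, and 30.3 without cell 86, against 48.4 in the bulk library. Cells with more reads weigh more in the pooled levels. The cells are Smart-seq2 and the bulk library is TruSeq, so only the unit is shared.

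Both genes were read together in 4 cells, namely cells 3, 19, 69 and 86. In cell 19 msi-1 had 155 reads and msi-2 had 1, and in cell 86 msi-1 had 194 and msi-2 had 977. A further 3 cells had msi-1 reads alone and 10 had msi-2 reads alone. Of the 7 cells with msi-1, 4 also had msi-2, and of the 14 cells with msi-2, 4 also had msi-1. With a threshold of 5 reads, msi-1 was found in 6 kept cells and msi-2 in 13.

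**Figure D4:**
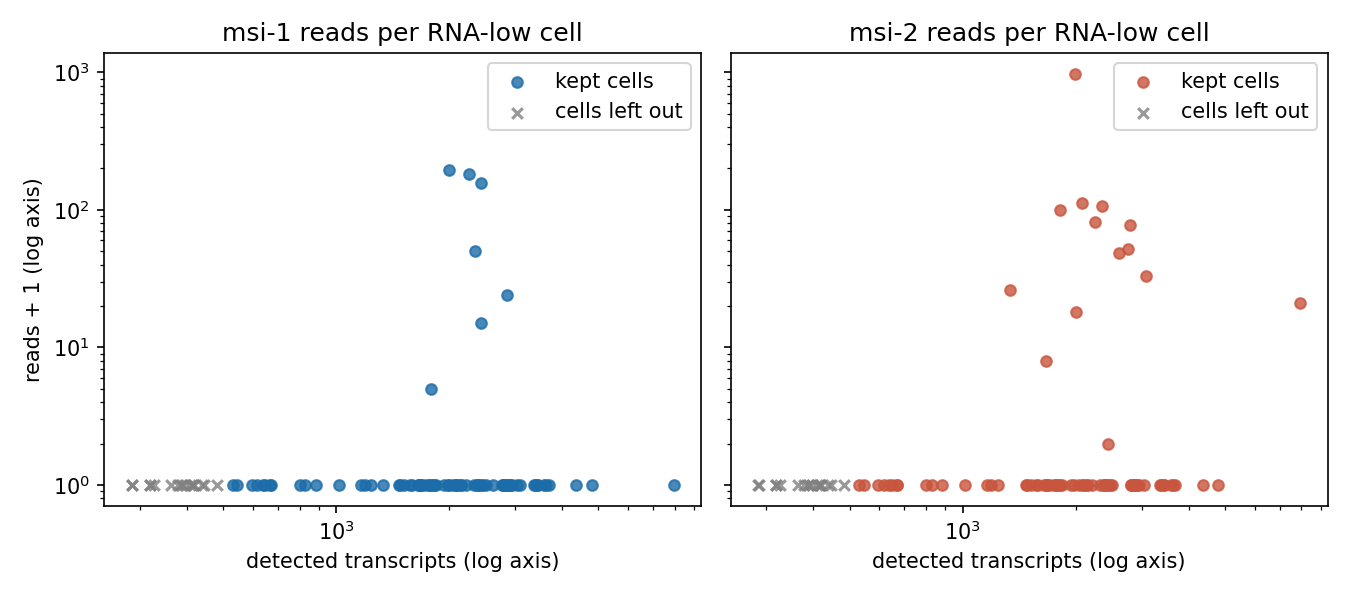
Reads of msi-1 (left) and msi-2 (right) plus 1 in each of the 96 RNA-low cells, against the number of detected transcripts, both on log axes. Circles are the 79 kept cells and crosses the 17 left out. Cells with reads of either gene have at least 1334 detected transcripts.

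The cells with Musashi reads were somewhat deeper than the rest. Cells with reads of either gene ranged from 1334 to 7946 detected transcripts with a median of 2350, against a median of 1962 in the 62 kept cells with neither. The shallowest of them, cell 7, sets a lower bound of 1334 transcripts that is used below to choose cells of like depth, and 64 kept cells reached it. Detection of the marker genes in kept cells varied at similar bulk levels in RNA-low: PCNA (40.7 CPM) in 3, CyclinB2 (39.5 CPM) in 4, porcn-B (41.9 CPM) in 11, elav-2 (63.4 CPM) in 6, COE (76.1 CPM) in 1 and porcnA (94.9 CPM) in 19. Genes with far higher bulk levels were read in more cells, bruli (292 CPM) in 35 and piwi-1 (1594 CPM) in 51. How far these counts reflect missed detection was not tested. The share of cells with reads is thus not given as the share of cells that express a Musashi gene.

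Cells with Musashi reads carried neoblast transcripts at shares close to those of other cells of like depth, with wide intervals. They were set beside the 47 kept cells with neither gene and at least 1334 transcripts, which had a median of 2325 transcripts. Reads of piwi-1 were found in 12 of the 17 cells with Musashi reads (70.6%, interval 44.0 to 89.7) and 33 of the 47 without (70.2%, interval 55.1 to 82.7). For piwi-2 the numbers were 16 of 17 and 45 of 47, for piwi-3 14 of 17 and 38 of 47, and for bruli 9 of 17 and 22 of 47. The one cell without piwi-2, cell 7, had 94 reads of piwi-3 and 7 of piwi-1. All 7 cells with msi-1 had reads of both piwi-2 and piwi-3, while 6 had reads of bruli and 4 of piwi-1. The shares hide unlike levels: cells 3 and 36 had 1 piwi-1 read each and cell 85 had 2. Among cells with reads of the gene, the median for piwi-1 was 482 RPM with Musashi reads and 155 RPM in the 47 without. For piwi-2 the medians were 2025 and 2254 RPM, for piwi-3 720 and 962, and for bruli 72.3 and 493.

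Neuronal markers were seldom read in kept cells, with or without Musashi reads. None of the 17 cells with Musashi reads had COE reads, which allows a share of up to 17.6% (exact upper limit 19.5%), against 1 of the 47 without. Reads of elav-2 were found in 2 of 17 and 4 of 47. Thus 15 of the 17 cells with Musashi reads had no read of either neuron marker. This does not set them apart, since over all 79 kept cells COE was read in 1 and elav-2 in 6.

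Among the remaining markers the intestine gene porcnA had reads in 8 of the 17 cells with Musashi reads (47.1%, interval 23.0 to 72.2) and 10 of the 47 without (21.3%, interval 10.7 to 35.7). The muscle gene titin had reads in 4 of 17 (23.5%, interval 6.81 to 49.9) and 4 of 47 (8.51%, interval 2.37 to 20.4), and porcn-B in 2 of 17 and 8 of 47. These intervals overlap. At least 1 of the 17 prog-1 and prog-2 family rows in the single-cell table was read in 12 of 17 cells with Musashi reads and 39 of 47 without, and vim-1 in 3 of 17 and 12 of 47. Reads of the prog family were about as frequent in the cells left out for few transcripts, at 14 of 17 (82.4%, interval 56.6 to 96.2). In those left-out cells piwi-1 was read in 6 of 17, piwi-2 in 4, chd4 in 1 and mex3-1 in 0. Prog reads are thus not taken to mark a cell as epidermal progeny, and their source was not tested. PCNA and mcm2 were each read in 1 of the 17 cells with Musashi reads, and CyclinB2 in 2 of 17, against 2, 1 and 2 of the 47. Of the RNA-binding list, mex3-1 was read in 15 of 17 and 42 of 47, tdrd112 in 3 of 17 and 8 of 47, and mex3-3 in 2 of 17 and 1 of 47.

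**Figure D5:**
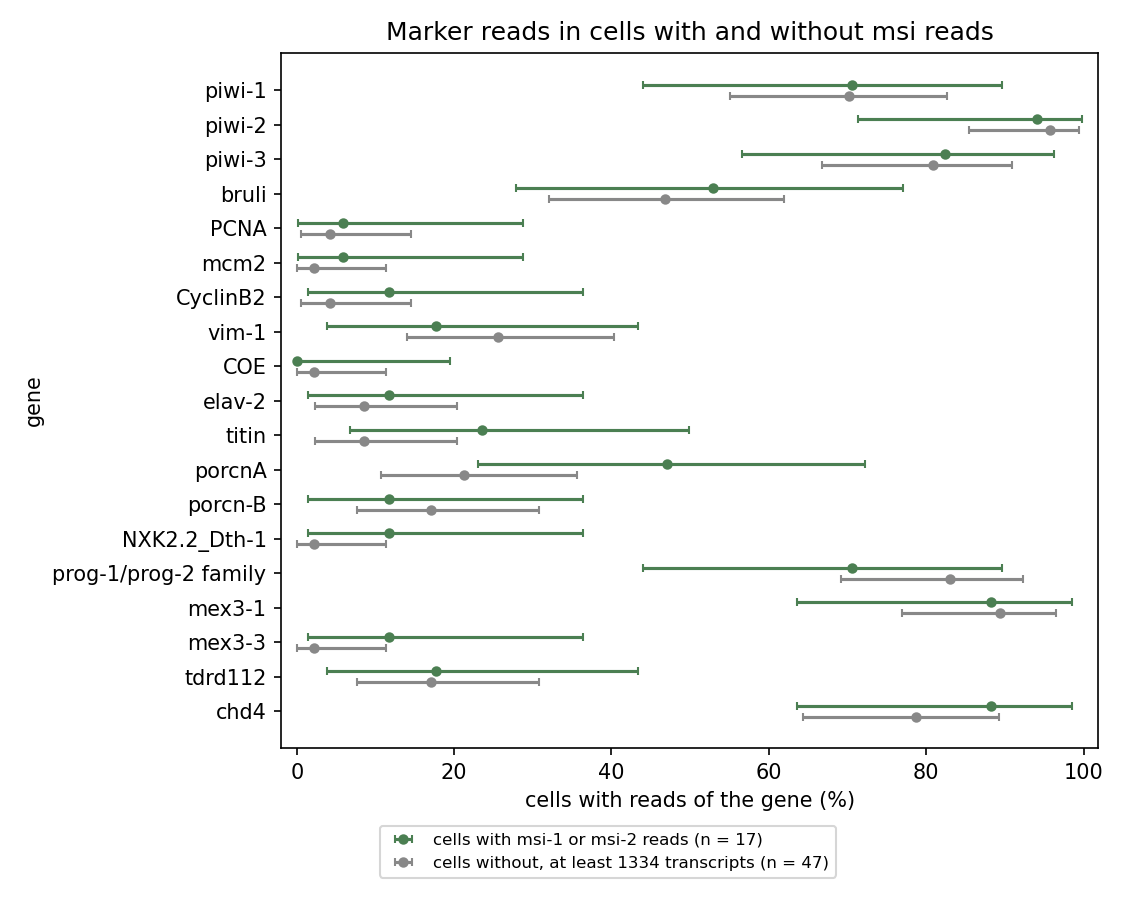
Share of cells with reads of each marker, RNA-binding gene or chd4, in the 17 kept RNA-low cells with msi-1 or msi-2 reads (upper point of each pair) and in the 47 without and with at least 1334 detected transcripts (lower point). Bars are exact 95% binomial intervals, which overlap for every gene shown.

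Seen from piwi-1, the Musashi genes were read on both sides. Reads of msi-1 were found in 4 of the 51 kept cells with piwi-1 reads (7.84%, interval 2.18 to 18.9) and 3 of the 28 without (10.7%, interval 2.27 to 28.2), with a median of 2213 and 2013 detected transcripts. Reads of msi-2 were found in 10 of 51 (19.6%, interval 9.82 to 33.1) and 4 of 28 (14.3%, interval 4.03 to 32.7). Among cells with reads of a Musashi gene and of piwi-1, cells 3 and 36 had 1 piwi-1 read each and cell 85 had 2. After each cell was thinned to 50000 reads other than ribosomal RNA, which left out 6 kept cells, msi-1 was found in 2 of 42 cells with piwi-1 reads and 4 of 31 without, and msi-2 in 9 of 42 and 4 of 31.

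Reads of chd4, whose bulk profile was among the 5 closest to msi-1, were present in all 7 cells with msi-1 and in 12 of the 14 with msi-2. They were found in 15 of the 17 cells with either gene (88.2%, interval 63.6 to 98.5). Among the 47 cells with neither and at least 1334 transcripts 37 had them (78.7%, interval 64.3 to 89.3), so the intervals overlap. Reads of msi-1 were found in 7 of 54 kept cells with chd4 reads (13.0%, interval 5.37 to 24.9) and in none of 25 without, which allows a share of up to 12.0% (exact upper limit 13.7%). The cells without chd4 reads were shallower, with a median of 1240 detected transcripts against 2382 in those with chd4 reads. At 1334 transcripts or more, msi-1 was read in 7 of 52 cells with chd4 reads and none of 12 without, which allows a share of up to 25.0% (exact upper limit 26.5%). Among the other genes close to msi-1 in bulk, Med12 was read in 1 of the 7 cells with msi-1 reads, ndk in 1, the spondin transcript in 1 and Med1 in 2. In the same order, the counts were 3, 2, 4 and 4 of the 17 cells with either Musashi gene. They were 6, 9, 2 and 12 of the 47 cells with neither and at least 1334 transcripts.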

How the data were processed

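Per the submitters' processing notes, bcl2fastq 1.8.3 and Bowtie2 (version not given) were used. For the counting tool, its strand setting, its filters and the transcript reference, the answer is not given in the sources used here. How reads shared by near-identical transcripts were treated is likewise unknown. Both tables hold raw read counts per transcript, as deposited by the authors. The RNA-low bulk library is the column named G0, the prefix that all RNA-low single-cell columns have as well, while S/G2/M, G1 and PM stand under their own names.

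Libraries were scaled with TMM in edgeR 4.0.16 under R 4.3.3. Log2 ratios were taken after adding 0.5 CPM. Intervals of a ratio are exact conditional binomial intervals of the CPM ratio without that addition. Reads per fragment were the peak of the number of transcripts per read count, smoothed over 5 counts, which is a rough estimate. Estimated fragments need not be whole. Calls used intervals on reads, and every Musashi call was the same on fragments. The calling step was tested on simulated data with known changes. These were drawn at the estimated reads per fragment and without variation between libraries, so the test covers neither that estimate nor that variation. Scaling with DESeq2 1.42.0 size factors was an alternative. No identical pairs of cells were found.

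The members, lists and rules were chosen with earlier results of these data known. The text names the Musashi genes, the RNA-binding list, the marker lists and the 5 named transcripts closest to each Musashi gene. Doublets were not called, since each library was made from 1 sorted cell, and whether any held more was not tested. Cell 6, which had msi-2 reads, had 7946 detected transcripts, against a median of 2075 in kept cells.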

Additional observations from a re-analysis of the deposited data

How the results depend on the processing

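No paired analysis was possible because each gate has 1 library and the single cells belong to 1 gate. Over 5 alternatives for each of the 12 log2 ratios of msi-1 and msi-2, 4 of 60 values changed sides of the call, all for msi-2, and no called ratio changed sign. With library totals msi-2 was at 2.31 in RNA-low against S/G2/M, -1.002 in S/G2/M against G1 (now called), -1.02 in S/G2/M against PM (now called) and -0.020 in G1 against PM, and msi-1 at 0.20 in G1 against PM. With totals without ribosomal RNA msi-2 was at 2.22, 0.94 in RNA-low against PM (no longer called), -0.91, -1.28 in S/G2/M against PM (now called) and -0.37, and msi-1 at 0.61 in RNA-low against PM, -3.60 in S/G2/M against PM and -0.15 in G1 against PM. With DESeq2 size factors msi-2 was at 1.92 in RNA-low against S/G2/M and -0.54 in S/G2/M against G1. Adding 1 CPM changed no call. The msi-1 ratio in RNA-low against S/G2/M ran from 3.85 to 4.31. Of kept cells, 7.59 to 10.3% had msi-1 reads and 16.5 to 20.6% msi-2 reads under other thresholds, or 7.29% and 14.6% of all 96 cells. Without a filter 7381, 15760, 17137, 15232, 21331 and 16306 transcripts were called, and with 50 CPM 384, 1328, 921, 850, 1666 and 331, against 2010, 4889, 4415, 3668, 6283 and 2936 (RNA-low against G1, S/G2/M and PM, S/G2/M against G1 and PM, G1 against PM). The share of calls that were higher was 55.4% in RNA-low against S/G2/M, but 45.2% with DESeq2 size factors and 68.7% with library totals, and in S/G2/M against G1 40.9%, but 53.8% and 19.5%. Without ribosomal RNA it was 23.1% in RNA-low against PM (43.2% with TMM), 23.6% in S/G2/M against PM (46.6%) and 21.2% in G1 against PM (35.0%). The median over all transcripts moved by up to -0.54 with it, in S/G2/M against PM. Intervals on estimated fragments changed no Musashi call, and for the counts over all transcripts, where they were chosen after seeing the data, they stayed within 1.5 times. The lowest msi-1 value rests on about 5.57 fragments, and 1 library per gate leaves variation between libraries unmeasured.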
